A study of Homo sapiens with 6 samples.

Results

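HK-2 is an immortalized line of human renal proximal tubular epithelium. The cells described here carried the empty control vector (HG-NC) and were kept in 30 mM glucose for 72 h, with no overexpression of hnRNP-F. They make up 3 of the 6 libraries of the series and were chosen by their labels as controls, not by any measured value. The other 3 libraries, of cells overexpressing hnRNP-F, were not used. As a model, the group is 1 cell line carrying a lentiviral vector, and no library in normal glucose was analysed here, so no level below can be read as an effect of glucose or of the vector. Polyadenylated RNA was captured and sequenced, and the study describes the 3 libraries as biological replicates of 1 cell line. The sources used here do not tie each library to a culture well. The 3 libraries held 25507595, 27015006 and 27888212 counts on genes in replicates 1, 2 and 3. Of 31831 listed genes, 28108 had a count in at least 1 of these libraries. Levels are given as FPKM (fragments per kilobase of transcript, scaled to the mapped fragments of the library), as computed by the authors. FPKM divides the count of each gene by a length, so that genes can be set side by side. The lengths are not given in the sources used here, and levels and ranks across genes depend on them. For example, EEF1A1 and CXCL8 had means of 133057 and 141455 counts per library but a mean FPKM of 442 and 2110. A gene is described as expressed at a mean FPKM of at least 1.

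The proximal tubule reabsorbs most of the glucose, amino acids, phosphate and small proteins that the glomerulus filters. In the kidney its cells carry dense apical transporters, the endocytic receptors megalin and cubilin, and enzymes of gluconeogenesis and vitamin D metabolism, under transcription factors such as HNF4A. Injured or cultured tubular cells are also known as a source of chemokines and cytokines, many of whose promoters hold sites for NF-κB, the transcription factor that mediates TNF-α signalling.

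Before the results, a difference between the libraries is given. Replicate 3 held low counts of transcripts known from liver that were almost lacking in replicates 1 and 2. ALB, which encodes serum albumin, had 4, 1 and 78 counts in replicates 1, 2 and 3, FGA (a fibrinogen chain) had 4, 0 and 65, and APOB (an apolipoprotein) had 5, 0 and 53. Over a list of 24 such genes, chosen after their values had been seen, the summed counts were 84, 61 and 504, or 3.29, 2.26 and 18.1 CPM (counts scaled to the library total). Of these genes, 23 had their highest CPM in replicate 3, and the highest mean level was 0.317 FPKM, of AMBP. All of them stayed below the level used here for an expressed gene. The genes of the lists below that moved with them are named with their counts by library.

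The promoters of 4 genes whose levels are central to the description are shown first, each as the 130 bases before the start site in RefSeq on GRCh38.p14, 5′ to 3′ on the strand of the gene. Capitals mark matches to GGNNTTTCC, a form of the NF-κB site, on the printed strand, and to TATAAA. They are CXCL8 (chr4:73740439-73740568, plus strand), IL6 (chr7:22727070-22727199, plus strand), CXCL2 (chr4:74099196-74099325, minus strand) and CXCL1 (chr4:73869263-73869392, plus strand).
CXCL8: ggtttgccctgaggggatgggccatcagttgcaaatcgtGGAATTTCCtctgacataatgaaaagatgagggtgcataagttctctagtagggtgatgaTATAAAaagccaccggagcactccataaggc
IL6: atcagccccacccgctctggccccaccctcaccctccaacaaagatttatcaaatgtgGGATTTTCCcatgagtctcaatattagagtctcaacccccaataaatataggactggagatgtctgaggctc
CXCL2: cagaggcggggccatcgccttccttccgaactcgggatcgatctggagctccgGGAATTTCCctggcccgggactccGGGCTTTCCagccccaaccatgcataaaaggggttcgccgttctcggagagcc
CXCL1: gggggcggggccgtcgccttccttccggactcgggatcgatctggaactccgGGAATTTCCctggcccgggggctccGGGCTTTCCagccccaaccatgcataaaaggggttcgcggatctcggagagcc
The first 3 genes were among the 50 genes of the highest level in these cells, and CXCL1 was near 0. The windows of CXCL1 and CXCL2 were identical in 121 of 131 aligned columns (92.4%), against 46.9% for CXCL1 and CXCL8.

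Genes of the mitochondrial genome led the ranking, and a chemokine and an enzyme of glucose metabolism were among the 15 highest genes. MT-CO2, a subunit of cytochrome c oxidase, ranked first with an FPKM of 12713 ± 305 (mean ± SD, n = 3 libraries, here and below), followed by the mitochondrial ribosomal RNA MT-RNR2 with 9593 ± 190. MT-CO3, MT-CO1 and MT-ND4, also subunits of the respiratory chain, took ranks 3 to 5 with 7344, 6929 and 6487 FPKM. The nuclear gene with the highest FPKM was TMSB10 (thymosin β10, which binds actin monomers), at rank 11 with 2848 ± 53.3. By counts it lay below AKR1B1 (means of 39357 and 225349 per library). CXCL8, which encodes the neutrophil chemokine interleukin-8, ranked 14 of 31643 genes with FPKM. Its FPKM was 2201, 2032 and 2097 in replicates 1, 2 and 3. AKR1B1, the aldose reductase that turns glucose into sorbitol, came next at rank 15 with 2051, 2035 and 2086. CXCL8 was above AKR1B1 in replicates 1 and 3 and just below it in replicate 2, so their order is not resolved (SDs of 85.3 and 26.1). The ferritin chains FTH1 and FTL followed with 1891 ± 47.4 and 1829 ± 34.1, with GAPDH between them at 1867 ± 26.6.

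**Figure D1:**
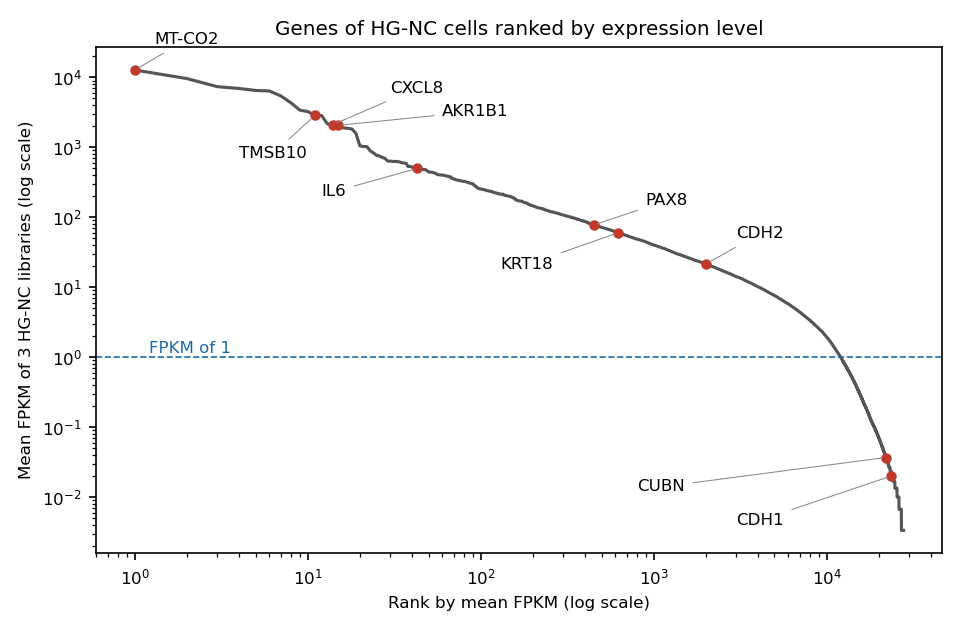
Mean FPKM of the 3 HG-NC libraries (vertical axis, log scale) against the rank of the gene (horizontal axis, log scale), with named genes as red points and an FPKM of 1 as the dashed line. CXCL8 and AKR1B1 lie at ranks 14 and 15, PAX8 at rank 450, and CUBN and CDH1 in the steep end of the curve below an FPKM of 0.1.

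Protein-coding genes took 96.3% ± 0.0483 of the counts. The 2 mitochondrial ribosomal RNAs took 1.84% ± 0.0369, lncRNAs 1.47% ± 0.0116 and pseudogenes 0.391% ± 0.00208. Per length these classes kept their order, with 92.2% of the summed FPKM on protein-coding genes, 3.84% on mitochondrial ribosomal RNAs and 2.40% on lncRNAs. The 37 genes of the mitochondrial genome together held 7.85% ± 0.184 of the counts and 25.7% ± 0.546 of the summed FPKM. Cytosolic ribosomal protein genes held 5.54% ± 0.123 of the counts. The 100 most counted genes held 22.4% of the counts and the 1000 most counted genes 52.3%. Among the 100 genes with the highest mean FPKM, 17 were of the mitochondrial genome, 22 encoded ribosomal proteins and 9 were of the secreted lists described below.

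In all, 12055 genes were expressed at a mean FPKM of at least 1, of which 10815 were protein-coding, or 61.6% of the 17551 protein-coding genes listed. Their levels centred on a median FPKM of 6.38, with quartiles of 2.86 and 15.4. There were 333 genes at 100 FPKM or above and 22 at 1000 or above. A count in all 3 libraries was seen for 21276 genes, and in 1 or 2 of the libraries for 6832. Of the protein-coding genes listed, 822 had no count in these libraries, where a true level of up to 3 counts in a library is compatible with a count of 0.

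Of the lncRNAs, 858 were at a mean FPKM of at least 1. The 5 with the highest levels were CH17-66N5.1 (1020 ± 52.3), RP5-940J5.9 (434 ± 23.2), XXbac-BPG254B15.11 (175 ± 3.06), RP11-793H13.8 (144 ± 3.47) and GAS5 (103 ± 5.33, a host of small nucleolar RNAs). In GENCODE release 44, RP5-940J5.9 overlaps GAPDH on the opposite strand, and CH17-66N5.1 also overlaps protein-coding genes. The source of the reads on these 2 lncRNAs is therefore uncertain, since the strand setting of the counting is not given in the sources used here.

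The label of the cells was checked against markers of kidney epithelium. PAX8, a transcription factor of the renal epithelial lineage, had an FPKM of 73.0, 79.4 and 79.8 in replicates 1, 2 and 3, at rank 450. KRT18, a keratin of simple epithelia, had 59.6, 59.7 and 60.6, at rank 624. LHX1 (3.92 ± 0.287) and SALL1 (2.63 ± 0.0361), factors of the developing kidney, were lower. In all, 9 of the 22 listed kidney transcription factors were expressed. HNF4A, the factor that directs maturation of proximal tubule cells, had 0 counts in every library. PAX2, a close relative of PAX8, was at 0.33 ± 0.05 FPKM. EYA1 and TFAP2B also had no count. The 9 expressed factors are 40.9% of the list, against 61.6% of all listed protein-coding genes.

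Of 48 listed genes of proximal tubule function, 13 were expressed, 10 lay between 0.1 and 1 and 25 were below 0.1. Their median was 0.085 FPKM. Among the transport genes, 4 of 21 were expressed. These were DAB2 (4.46 ± 0.195), an adaptor of endocytosis, SLC4A4 (2.82 ± 0.181), the basolateral sodium bicarbonate cotransporter, SLC7A7 (1.31 ± 0.156), part of an amino acid exchanger, and AMN (1.02 ± 0.13), the partner of cubilin. AMN was at the threshold, with 109, 149 and 136 counts in the 3 libraries. SLC5A2, the glucose transporter SGLT2, lay just below it with 0.57, 0.81 and 0.91, from 73, 110 and 127 counts. The endocytic receptor genes were low, with 0 counts on LRP2 (megalin) and 14, 13 and 16 on CUBN (cubilin). The water channel AQP1 had 0, 6 and 7 counts. No count was seen on SLC5A1, SLC6A19 or SLC47A1, which carry glucose, neutral amino acids and organic cations. SLC22A2, SLC22A6, SLC22A8 and SLC22A12 were not analysed here.

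The enzymes of the proximal tubule were better represented, with 9 of 27 expressed. UGT2B7, a glucuronosyltransferase, led with an FPKM of 49.2, 48.6 and 47.1 in the 3 libraries. GPX3, the secreted glutathione peroxidase, had 40.0, 40.5 and 41.6. MIOX, the first enzyme of inositol breakdown, had 14.1 ± 0.581, and ASS1, of arginine synthesis, had 12.5 ± 0.112. The 2 vitamin D hydroxylases were expressed at low levels, CYP24A1 at 2.28 ± 0.146 and CYP27B1 at 1.27 ± 0.0681. The genes of gluconeogenesis were near 0, with 0, 4 and 5 counts on PCK1, 0, 0 and 2 on FBP1 and 0, 0 and 1 on G6PC1. The brush border peptidase ANPEP had 0, 2 and 4 counts. HPD, of tyrosine breakdown, had 4, 0 and 20 counts. It was highest in replicate 3, the library with the liver transcripts, and the part of that library in its value was not tested.

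**Figure D2:**
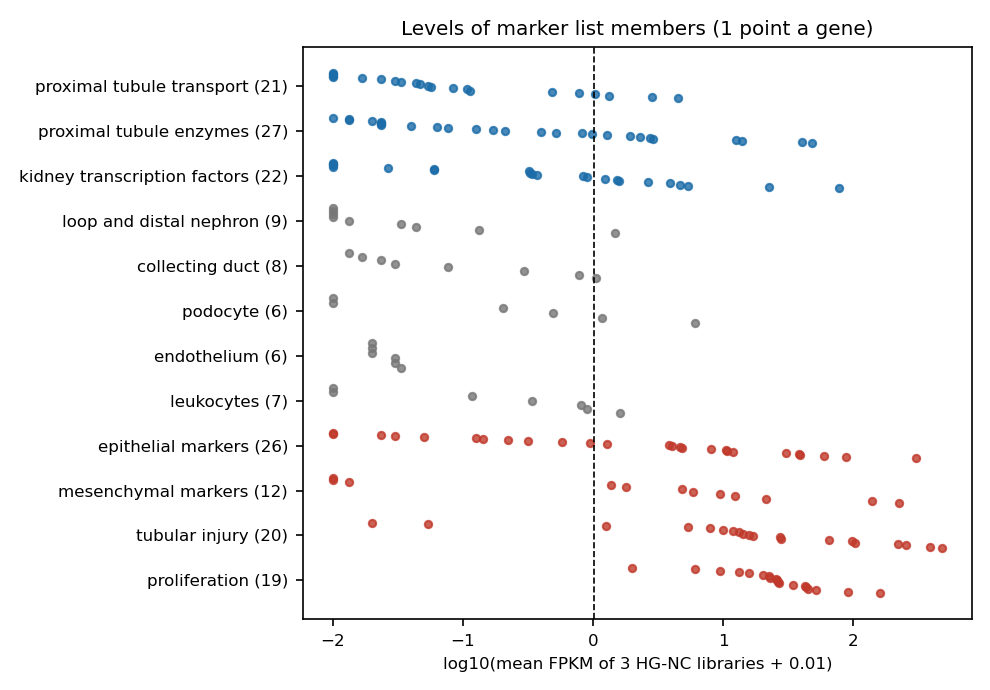
Mean FPKM of the 3 HG-NC libraries, as log10(FPKM + 0.01), for the members of 12 marker lists, 1 point a gene, with the number of listed members in parentheses and an FPKM of 1 as the dashed line. All 19 proliferation genes lie right of the line, against 4 of 21 genes of proximal tubule transport and none of the 6 endothelial genes.

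Markers of other cells of the kidney were expressed in part. None of 6 endothelial markers reached an FPKM of 0.1. Of the markers of the loop and distal nephron, 1 of 9 was expressed (CLDN16, 1.47 ± 0.1), and of the collecting duct 1 of 8 (SCNN1A, a subunit of the epithelial sodium channel, 1.04 ± 0.0351). SYNPO, an actin-binding protein of podocytes, had 6.08 ± 0.114 and was 1 of 2 expressed among 6 podocyte markers. CD14 (1.60 ± 0.0872) was the only one of 7 leukocyte markers expressed. Of 10 markers of fibroblasts and mural cells 3 were expressed, led by LUM (lumican) with 8.08 ± 0.442. The shares for podocytes (33.3%) and for fibroblasts and mural cells (30%) were not below that of the proximal tubule genes (27.1%). SYNPO and LUM lay above every listed gene of proximal tubule transport. They lay below the proximal tubule enzymes UGT2B7 (48.3), GPX3 (40.7), MIOX (14.1) and ASS1 (12.5).

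Epithelial and mesenchymal genes were expressed side by side. Of 26 epithelial markers, 15 were expressed (57.7%), a share close to the 61.6% of all listed protein-coding genes. CLDN1, a sealing claudin of tight junctions, led with 308, 298 and 305 FPKM in replicates 1, 2 and 3. KRT19 (89.0 FPKM; 84.8 to 91.2 in the 3 libraries), EPCAM (39.0 ± 1.80), KRT8 (38.6 ± 0.541), the partner of KRT18 in filaments, and KRT7 (11.9 ± 0.0643) followed. CDH16, the kidney-specific cadherin, had 10.6 ± 0.349. CDH1, which encodes E-cadherin, had 6, 4 and 2 counts in the 3 libraries, a mean FPKM of 0.02. In the same libraries CDH2, which encodes N-cadherin, had 5169, 5747 and 5611 counts and an FPKM of 21.4 ± 0.594. GRHL2 and OVOL1, transcription factors that maintain epithelia, had 0 counts. Of 12 mesenchymal markers 9 were expressed (75%), led by FN1 (fibronectin, 225 ± 4.47) and VIM (vimentin, 140 ± 0.722). SNAI2 and SNAI1, repressors of CDH1, had 9.46 ± 0.463 and 5.85 ± 0.756. Processed copies of KRT8 and KRT18 held 2.93% and 0.314% of the counts of their parents. Reads shared by a keratin gene and its copies were not counted, and how much that lowers these keratin levels was not measured.

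The share of members expressed differed between gene families, and over all listed protein-coding genes it was 61.6%. Of 39 listed keratins 8 were expressed, with KRT19, KRT80 (67.7 ± 2.74) and KRT18 highest. Of 17 claudins 6 were expressed, CLDN11 coming second to CLDN1 with 135 ± 3.65. None of 10 aquaporins reached an FPKM of 1. Laminins were expressed in 9 of 12 cases, LAMB3, a chain of epithelial basement membranes, among them with 69.0 ± 3.32. Of 43 collagens 14 were expressed, with COL6A2 (30.1 ± 0.174), COL4A2 (28.3 ± 1.14) and COL4A1 (25.4 ± 0.35), the latter pair being chains of basement membrane collagen. HOX genes, which keep positional identity, were expressed in 28 of 38 cases, led by HOXA9 (37.2 ± 1.13). Of 307 solute carriers 155 were expressed (50.5%).

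The genes of secreted proteins are given next. The lists of cytokines, growth factors, binding proteins, matrix glycoproteins, proteases and inhibitors, complement and acute phase proteins and chemokines held 190 listed genes. These include a few proteins that stay in the cell or its membrane (CTSB, CTSD, CTSL, SERPINH1 and F3), and RNA was measured, not secretion. Of the 190 genes, 117 (61.6%) were expressed, the same share as over all listed protein-coding genes (61.6%). An FPKM of 10 was reached by 77 of them and of 100 by 19. Together they took 3.48% ± 0.00821 of the counts and 3.03% ± 0.0114 of the summed FPKM. Behind CXCL8, CSF2, the growth factor GM-CSF of granulocytes and macrophages, had 538, 531 and 528 FPKM (rank 38). IL6, a cytokine of inflammation and the acute phase, had 499, 503 and 495 (rank 43). The lowest CSF2 value lay above the highest IL6 value. CCN1, a matricellular protein, had 479 ± 8.20, and SPP1, which encodes osteopontin, had 388 ± 11.1. PLAU, the urokinase that activates plasminogen, had 300 ± 13.5 at rank 90. The stress-related factors GDF15 (255 ± 14.2) and LCN2 (220 ± 4.55), known as markers of tubular injury, were also high.

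Among the cytokines 17 of 28 were expressed (60.7%, against 61.6% of all listed protein-coding genes). CSF1 (84.0 ± 3.30), IL32 (46.1 ± 1.05) and LIF (41.7 ± 1.61) came after CSF2 and IL6. TNF, which encodes TNF-α, had 533, 663 and 590 counts in the 3 libraries and an FPKM of 11.8 ± 1.05. IL1A was at 2.48 ± 0.439, and IL1B at 0.293 ± 0.083 was below the threshold. NFKBIA, the NF-κB inhibitor that NF-κB itself induces, had 226 ± 1.34. CXCR2, a receptor for CXCL8, had 0 counts. Among the matrix glycoproteins 22 of 24 were expressed, and TGFBI (127 ± 2.96), PTX3 (124 ± 2.32) and SPARC (104 ± 1.56) exceeded 100 beside FN1. Of 24 proteases and inhibitors 19 were expressed, TIMP1 (126 ± 5.43) and LOXL2 (122 ± 3.41) among the highest. Of 22 complement and acute phase genes 10 were expressed, including SAA1 (73.3 ± 3.85) and C3 (35.6 ± 0.511). In this list HP had 0, 2 and 34 counts, CRP 0, 0 and 17 and ORM1 1, 0 and 17, all highest in replicate 3 and below an FPKM of 1 there.

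**Figure D3:**
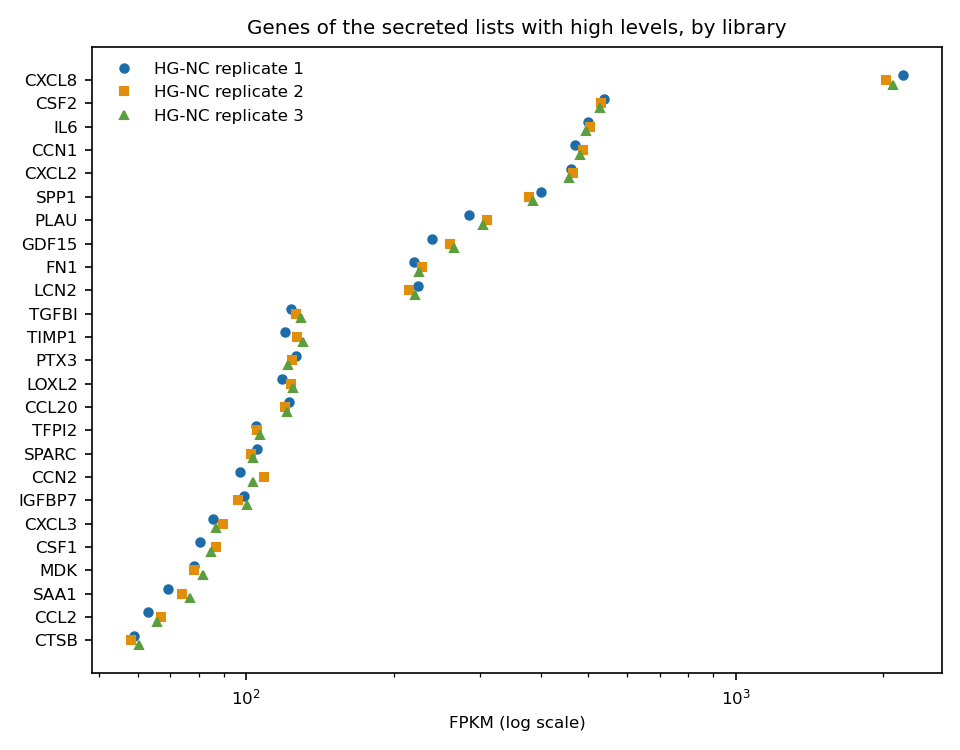
FPKM (log scale) in each of the 3 HG-NC libraries for 25 genes of the secreted lists with high mean FPKM, ordered by mean. CXCL8 stands apart from 2032 to 2201, and for each gene the 3 libraries lie close together.

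The CXC chemokine genes clustered on chromosome 4 differed widely from neighbour to neighbour. CXCL8 had 140451, 137874 and 146039 counts in replicates 1, 2 and 3. CXCL2 had 18339, 19675 and 19831, CXCL3 had 5403, 6015 and 5983, and CXCL5 had 1661, 1673 and 1840. In contrast, CXCL1 had 2, 1 and 4 counts, CXCL6 had 5, 4 and 5, PF4 had 0, 0 and 1 and PPBP had none. The proteins of CXCL1, CXCL2 and CXCL3 are close relatives that attract neutrophils. Per length, CXCL2 had an FPKM of 460, 464 and 456 in the 3 libraries and CXCL1 of 0.05, 0.02 and 0.09. Since only uniquely mapped reads were counted, the likeness of the transcripts was measured: of 1025 windows of 150 bases along a CXCL1 transcript in GENCODE release 44, 991 (96.7%) differed from the CXCL2 and CXCL3 transcripts by more than 4 bases. Most such windows could therefore be told apart from those relatives by sequence. Other parts of the genome were not compared, and whether mapping or counting lowered the CXCL1 counts was not tested. Among the other chemokines, CCL20 (121 ± 1.18), CCL2 (65.2 ± 2.06) and CX3CL1 (11.1 ± 0.56) were the highest of 5 expressed of 19.

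**Figure D4:**
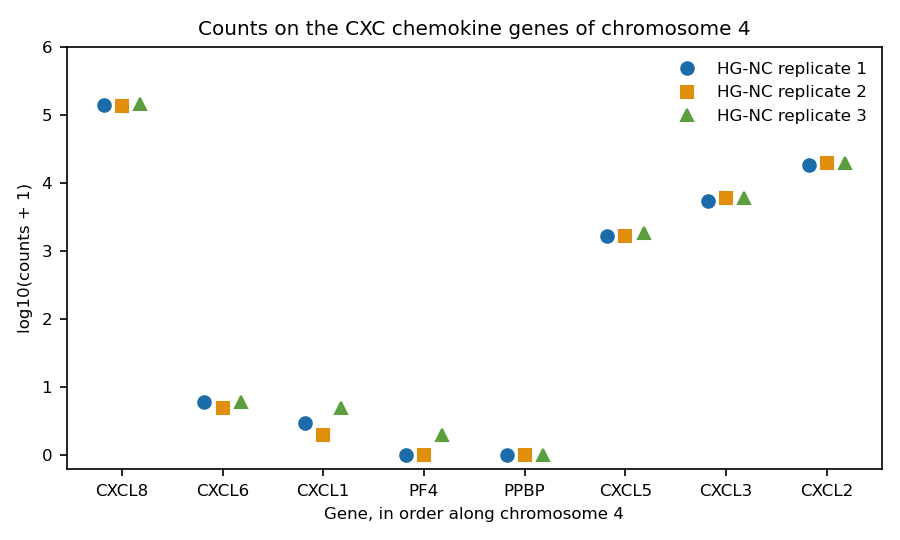
Counts, as log10(counts + 1), of 8 CXC chemokine genes in their order along chromosome 4, in each of the 3 HG-NC libraries. CXCL8, CXCL5, CXCL3 and CXCL2 lie at 1661 counts or more in every library and the genes between them at 5 or fewer.

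Counts of 2 short patterns in the promoter windows did not set CXCL1 apart from CXCL2. Other differences between the windows were not tested against the levels. The windows of both CXCL2 and CXCL1 held 2 matches to GGNNTTTCC, those of CXCL8 and IL6 held 1, and only that of CXCL8 held TATAAA. Over 250 bases before the start and on the gene's strand or its reverse, GGNNTTTCC was found in 5.49% of all 35093 RefSeq promoters. It was found in 17.2% of 64 promoters of secreted-list genes at an FPKM of at least 10 and in 13.3% of 75 promoters of those below 1. TATAAA was found in 10.7% of all promoters and in 20.3% and 21.3% of those groups. A match is a description of the sequence and not evidence of a bound site.

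Genes of glucose entry and use were expressed in 22 of 32 listed cases. Within this list, which leaves out GAPDH and other glycolytic enzymes of higher level such as ENO1 (691 ± 7.20), PKM (227 ± 5.92) and LDHA (217 ± 5.25), which act at the end of glycolysis, followed AKR1B1. TXNIP, a glucose-responsive inhibitor of thioredoxin, had 122, 110 and 114 FPKM in the 3 libraries. SLC2A1, the glucose transporter GLUT1, had 79.3 ± 2.20. The osmolyte transporters SLC6A12 (3.75 ± 0.129), SLC5A3 (3.36 ± 0.104) and SLC6A6 (2.49 ± 0.0681), and their regulator NFAT5 (3.47 ± 0.11), were expressed at lower levels. Of 8 renin-angiotensin genes, ATP6AP2 (15.4 ± 0.359) was the only one expressed, and AGT, which encodes angiotensinogen, was at 0.853 ± 0.0115. HNRNPF, the gene overexpressed in the other libraries of the series, had 82.9, 86.9 and 85.4 FPKM here.

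All 19 proliferation genes were expressed, with a median of 25.8 FPKM. Of 8 cell cycle inhibitors and telomerase genes 7 were expressed, led by CDKN2A (50.4 ± 1.92), and the exception was TERT, the catalytic subunit of telomerase, with 3, 0 and 0 counts. Of 20 genes linked to tubular injury 18 were expressed, HAVCR1, which encodes the injury marker KIM-1, at 7.98 ± 0.825. Several of these genes are also in the secreted lists.

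The libraries were close to each other. Over the 12205 genes with a mean of at least 100 counts, the median coefficient of variation (CV) of CPM was 4.33%, and 89.5% of these genes had a CV under 10%. The highest library exceeded the lowest by more than 1.5 times for 67 genes and by more than 2 times for 1, PPIAP22, a processed pseudogene with 462, 296 and 244 counts. Other genes of large spread were GOLGA2P5 (76, 92 and 150 counts), IL6-AS1 (72, 139 and 100) and EFNA3 (132, 94 and 84). The noise value used here is the inverse square root of the mean count, the CV that sampling noise gives over many libraries. At 10 to 100 counts the median CV was 19.4% against a noise value of 18.9%. At 10000 counts or more it was 2.27% against 0.780%. A median CV over 3 libraries falls below the noise value under sampling noise alone, so these gaps understate the excess. Pearson's r of log2(FPKM + 1) across genes was 0.997 to 0.998 for the 3 pairs of libraries, and genes are not independent replicates. The index of dispersion between pairs (1 where sampling noise is the only difference) was 3.48 for replicates 1 and 2, 3.11 for 1 and 3 and 2.18 for 2 and 3, so no library was a second deposit of another. The biological coefficient of variation from edgeR was 0.0366, and 0.0247 without replicate 1.

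**Figure D5:**
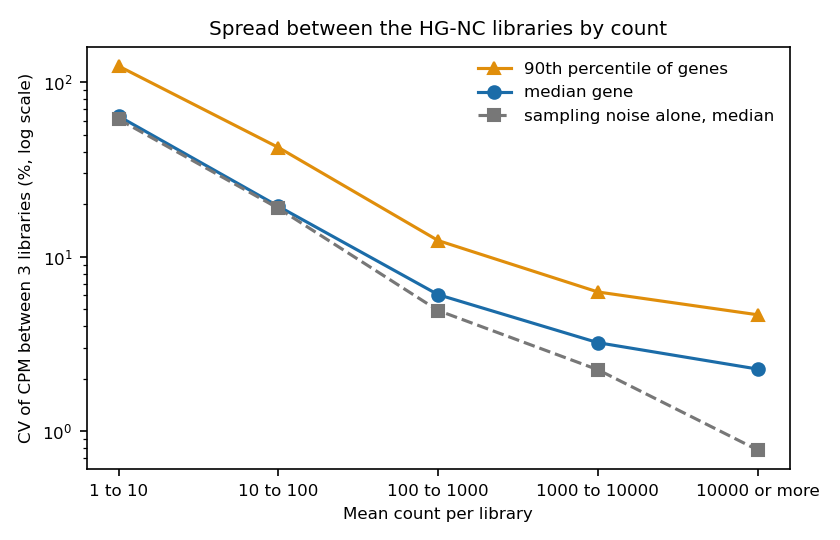
Coefficient of variation of CPM between the 3 HG-NC libraries (vertical axis, %, log scale) for genes grouped by mean count (horizontal axis), as the median gene and the 90th percentile. The dashed line is the median inverse square root of the mean count, the CV of sampling noise over many libraries. A median CV over 3 libraries falls below that line under sampling noise alone. The median gene lies just above the line up to 100 counts and further above it at higher counts, 2.27% against 0.780% at 10000 counts or more.

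The spread differed between the lists. For members with a mean of at least 100 counts, the median CV was 3.51% over 116 genes of the secreted lists, 3.27% over 17 epithelial markers and 11.8% over 5 genes of proximal tubule transport, the last of which have low counts. The gene with the highest CV among these transport genes was SLC5A2 (22.8%).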

How the data were processed

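RNA-seq of the 3 HG-NC libraries was described without a comparison. The libraries were grouped by their labels, and glucose dose and time are those of the study's methods. Reads were cleaned and then mapped by the authors with HISAT2 (version not given in the sources used here) against GRCh38, and those mapped uniquely were counted. The deposited counts are whole numbers per gene. Between libraries, the deposited FPKM values followed the counts within 0.5% for all of 5929 genes checked. A length per gene and a factor per library were taken from the same values. The check therefore cannot show whether the lengths behind the FPKM are right. The study's text names ComBat_seq, and whether it entered the counts is not given in the sources used here, nor are the annotation release and the strand setting of counting. ComBat_seq could change the spread between libraries.

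Means and SDs over 3 libraries were computed in Python 3.11.15. The biological coefficient of variation came from edgeR 4.0.16 in R 4.3.3 (TMM, filterByExpr, 15969 genes) and was tested on simulated data. Positions came from GENCODE release 44 and promoters from RefSeq, which matched 13481 of 17534 protein-coding symbols. Genes named were those of the highest FPKM (any type, lncRNA), up to 6 leading members of each list, kidney genes below 0.1 and those of the largest spread. Others were chosen after their values were seen. Members and lists were chosen with earlier results of these data known. Limits from a count of 0 cover counting error only. List members without a row were left out, and some genes that the rule names are not reported here. Alternatives were other FPKM thresholds, count filters, DESeq2 1.42.0 size factors, pseudocounts, ranks by median or among protein-coding genes, TPM, and each library left out.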

Additional observations from a re-analysis of the deposited data

How the results depend on the processing

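Of 47 alternative values of the main quantities, 34 stayed within 1.5 times (counts of genes) or 1 SD (other values). Within those limits, the number of genes expressed was 15626 at a mean TPM of at least 1, against 12055 by FPKM. TPM is FPKM scaled to a common sum per library. The share of counts on protein-coding genes was 92.2% of summed FPKM and 98.0% without mitochondrially encoded genes. The share in the 100 most counted genes was 41.8% by FPKM and 17.2% without mitochondrially encoded genes. The number of proximal tubule genes expressed was 23 at an FPKM of at least 0.1, 4 at an FPKM of at least 5 and 24 at 10 counts in every library, against 13. The median SD of log2(FPKM + 1) between libraries was 0.0524, and 0.062 with a pseudocount of 0.1, 0.0629 as log2 CPM and 0.0423 without a filter. The median SD was 0.0361 without replicate 1, 0.0455 without replicate 2 and 0.0477 without replicate 3. A median SD over fewer libraries is lower at equal spread, so the drop from 0.0524 alone does not show that the value depends on a library. The biological coefficient of variation was 0.0247 without replicate 1, 0.0401 without replicate 2 and 0.0431 without replicate 3. Among the values with a library left out, both measures of spread were lowest without replicate 1. Leaving out replicate 3, the library with liver transcripts, left 117 secreted-list genes, 15 epithelial markers and 13 proximal tubule genes expressed. No paired analysis was possible because only 1 group was described. Groups of 3 libraries are too small for a test of outliers. Genes below 100 counts are limited by depth.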
